A study of Homo sapiens with 6 samples.

Results

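The METTL3 peak list of LNCaP cells held 173 regions on the assembled autosomes and sex chromosomes of hg38, out of 199 entries deposited for that library and out of 10267 regions kept over the 4 peak lists of the series. All entries of the list on these chromosomes were taken, with no further choice. LNCaP is an androgen-responsive line from a lymph node metastasis of prostate cancer. The LNCaP METTL3 library was made from untreated cells grown in serum-containing medium, with an Abcam antibody to METTL3, and its peaks were called by the authors against 1 LNCaP control library, which is titled IgG and whose antibody field names a secondary antibody. The other 3 lists come from an Active Motif antibody to PRMT5 in LNCaP, called against that same control, and from both antibodies in PC3, an androgen-independent prostate cancer line, called against a PC3 control. The labels name no treatment and no engineered allele in any group. Each library used 100000 cells and 16 PCR cycles of an in-situ assay in which the antibody tethers Tn5 transposase to chromatin. There was 1 library on each side, so no difference between conditions could be tested, and the intervals printed below are exact (Clopper-Pearson) 95% binomial intervals that cover counting error only. The number of reads behind the list is unknown.

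METTL3 is the catalytic subunit of the nuclear complex that writes N6-methyladenosine (m6A) on RNA, with METTL14 as its partner and WTAP as an adaptor. The complex acts largely on nascent transcripts, and METTL3 has been found on chromatin at promoters and over gene bodies of transcribed genes. TLE3 and TLE4, which recur below, are Groucho family corepressors: they bind no DNA themselves, are brought to genes by factors of the TCF, RUNX and HES families, and recruit histone deacetylases.

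Among the regions for which a promoter sequence was at hand, 4 windows of protein-coding genes lay under a METTL3 peak. They are shown because the results turn on the TLE genes and because the CARS2 window holds a repeated 10-base word. Each window runs from 250 bases before to 50 bases after a start site in RefSeq (GRCh38.p14), 5′ to 3′ on the gene's strand. Capitals mark matches to the short promoter words searched on both strands, namely the GC box (GGGCGG), the CCAAT box (CCAAT), the E-box (CACGTG), the TATA box (TATAAA), the ETS core (CCGGAA), the CRE core (TGACGTCA) and the AP-1 site (TGAGTCA or TGACTCA). The words do not contain one another.
TLE3, most upstream start, minus strand, chr15:70097868-70098167: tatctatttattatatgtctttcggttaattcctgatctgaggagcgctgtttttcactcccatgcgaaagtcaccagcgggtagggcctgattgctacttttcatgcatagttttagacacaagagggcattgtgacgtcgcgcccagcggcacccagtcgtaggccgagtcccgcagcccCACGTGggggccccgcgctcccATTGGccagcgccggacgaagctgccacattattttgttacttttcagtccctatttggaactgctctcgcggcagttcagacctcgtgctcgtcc
TLE3, most downstream start, minus strand, chr15:70094740-70095039: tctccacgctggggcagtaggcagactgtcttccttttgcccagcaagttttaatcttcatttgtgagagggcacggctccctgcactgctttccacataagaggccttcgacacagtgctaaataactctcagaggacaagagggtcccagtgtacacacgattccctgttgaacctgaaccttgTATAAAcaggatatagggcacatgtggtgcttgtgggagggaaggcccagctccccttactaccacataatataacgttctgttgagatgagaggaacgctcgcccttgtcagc
TLE4, plus strand, chr9:79571715-79572014: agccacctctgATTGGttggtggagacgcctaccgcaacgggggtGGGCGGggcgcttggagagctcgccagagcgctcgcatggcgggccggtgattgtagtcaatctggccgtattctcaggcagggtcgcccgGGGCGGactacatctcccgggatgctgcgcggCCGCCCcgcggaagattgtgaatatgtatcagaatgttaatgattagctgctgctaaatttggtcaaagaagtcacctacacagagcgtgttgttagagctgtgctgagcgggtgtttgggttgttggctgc
CARS2, internal start, minus strand, chr13:110706466-110706765: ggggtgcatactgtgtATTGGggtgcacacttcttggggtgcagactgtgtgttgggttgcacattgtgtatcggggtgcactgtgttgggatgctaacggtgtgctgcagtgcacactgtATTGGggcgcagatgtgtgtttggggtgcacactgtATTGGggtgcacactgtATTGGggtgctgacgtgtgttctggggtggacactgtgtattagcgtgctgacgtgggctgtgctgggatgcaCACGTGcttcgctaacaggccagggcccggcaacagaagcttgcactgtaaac
The first TLE3 window lay whole inside a peak, and 182 of the 300 bases of the second did. The peak covered 87 bases of the TLE4 window and 273 of the CARS2 window. The upstream TLE3 window holds 1 E-box, a word found in 7.26% of all 35116 windows of the table, and 1 CCAAT box, found in 34.6%. The TLE4 window holds 3 GC boxes, a word found in 45.0% of windows, and 1 CCAAT box. The downstream TLE3 window holds 1 TATA box, found in 11.5%. No ETS core, CRE core or AP-1 site was found in any of the 4. The upstream TLE3 window has 21 CpG dinucleotides and the TLE4 window 22, against a median of 14 over all windows, and the downstream TLE3 window has 7. In the CARS2 window the 10-base word TGTATTGGGG stands 4 times, and 5.19% of all windows hold some 10-base word as often. These matches describe the sequence only.

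TLE3 carried the METTL3 peaks of highest fold and the largest cluster of the list. The gene spans chr15:70047790-70097917 on the minus strand (Gene ID 7090), and 7 of the 173 peaks lay within 9.66 kb around its 5′ end, covering 3271 bp or 33.9% of that stretch. The highest peak of the whole list, with a fold of 19.8 over the control and a −log10 q of 36.6, stood 1.81 kb upstream of the most upstream start. The fold over the control is the caller's ratio of summit signal to an expected level, in a call against the control library. Whether that level was local control signal or a background common to many sites is unknown, as the settings are not given. The q is the caller's adjusted p, and both are the authors' values. The second highest peak of the list, with a fold of 14.8 and a −log10 q of 24.5, had its summit 88 bp upstream of that start and spans it. Both are wide for this list, at 812 and 550 bp against a median of 265 bp.

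The other 5 peaks of the locus flanked these. Peaks of fold 8.85 and 10.8 stood 2.90 and 4.19 kb upstream, at widths of 659 and 541 bp. A narrow peak of fold 8.00 lay between the main pair, 907 bp upstream, and another of fold 5.70 lay farthest out, 6.56 kb upstream. The only one downstream of the first start had a fold of 8.51 and a summit 2.96 kb into the gene, 164 bp from the most downstream of the 3 starts that RefSeq lists for TLE3. The middle start, 1.165 kb into the gene, lay under no peak. So 6 of the 7 summits were upstream of the gene, and 4 of the 7 were among the 15 highest of the list. Each of the 7 was free of overlap with the other 3 lists. The nearest PRMT5 peak of LNCaP, called against the same control, was 182 kb from the gene, the nearest PC3 METTL3 peak 2772 kb and the nearest PC3 PRMT5 peak 4002 kb.

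**Figure D1:**
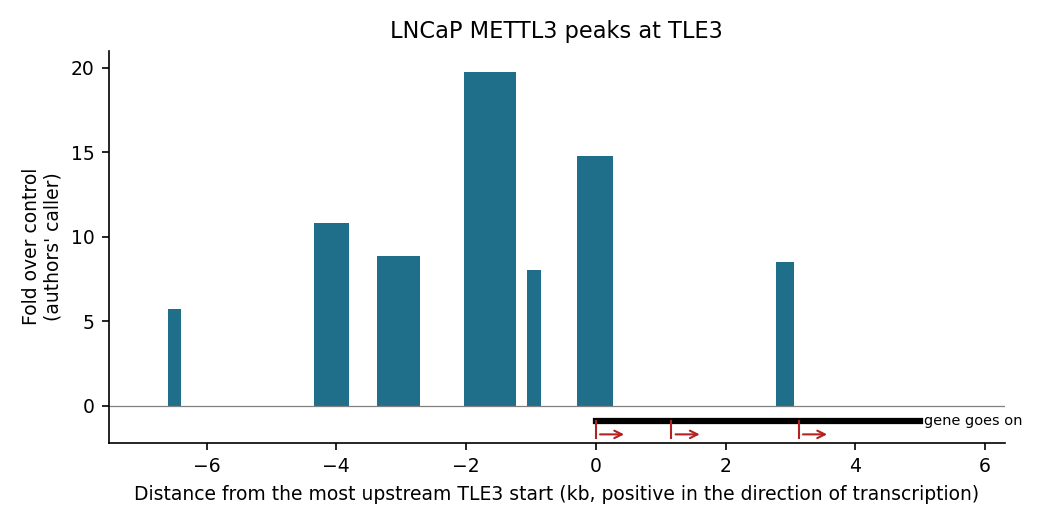
Fold over the control (vertical axis) of the 7 LNCaP METTL3 peaks at TLE3, drawn at their true width against distance in kb from the most upstream start (horizontal axis, positive in the direction of transcription). The black line is the gene and the red arrows its 3 listed starts. The highest bars, with folds of 19.8 and 14.8, stand upstream of and across the first start.

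TLE4, the family member on chromosome 9 (chr9:79571965-79726882, plus strand), also had a METTL3 peak at its start. Its summit lay 407 bp upstream, at chr9:79571529-79571801, with a fold of 6.98 and a −log10 q of 4.67. This is a mid-range peak, near the list's median fold of 6.22. The nearest PC3 METTL3 peak was 124 kb from TLE4 and the nearest LNCaP PRMT5 peak 2580 kb. TLE1, TLE2, TLE5 and TLE6 had none: the closest to TLE1 was 2012 kb away, and TLE2, TLE5 and TLE6 lie on chromosome 19, which had no METTL3 peak at all. So 2 of the 6 TLE genes had a peak within 3 kb of an end, in a list where 0.0749% of 20033 protein-coding genes did. TLE3 was known from earlier results when this family was looked at, so no test was made of that count.

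Off chromosome 8, peaks near gene starts were seen at 5 genes, TLE3 and TLE4 among them. RefSeq starts were at hand for protein-coding genes on all chromosomes but 8. On those chromosomes 9 of 160 peaks, 5.63% (2.60 to 10.4), had a summit within 3 kb of a listed start. Of the 9, 5 were neighbours at TLE3, which the interval counts as separate. With peaks within 50 kb counted as 1 locus, the share was 3.47% (1.14 to 7.92). Counted by peak, the share was 27.7% (24.9 to 30.7) in the LNCaP PRMT5 list and 3.37% (2.95 to 3.83) in the PC3 METTL3 list. The share of bases within 3 kb of a listed start was not worked out. So the 5.63% is read neither as many nor as few. Besides TLE3 and TLE4, the genes with a peak near a listed start were CARS2, ZMYND11 and KISS1. CARS2 encodes the mitochondrial cysteinyl-tRNA synthetase, and its peak had a fold of 9.45 and a summit 133 bp from an internal start. ZMYND11, which encodes a reader of methylated histone H3.3, had a fold of 8.77 at 892 bp from an internal start. KISS1, a metastasis suppressor gene, had a fold of 7.34 at 959 bp. Those 3 regions also had a LNCaP PRMT5 peak, with folds of 7.52 at CARS2, 7.85 at ZMYND11 and 4.55 at KISS1, whereas the TLE3 and TLE4 peaks overlapped no peak of any other list.

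Counting both ends of a gene, 16 peaks, 9.25% (5.38 to 14.6), had a summit within 3 kb of an end of a protein-coding gene, and they touched 15 genes. For 3 of these genes the nearer end was the start (TLE3, TLE4 and KISS1) and for 6 it was the far end. These were SERINC2 (fold 2.97), GOLT1A (the KISS1 peak), FRG2C (4.11), LMLN (6.47), and AMPD3 and RNF141, which face the same peak of fold 2.91. That shared peak is the one 218 bp from MTRNR2L8, a nuclear copy of a mitochondrial gene. The FRG2C peak lies on DUX4L26, a DUX4-like copy. Both are among the peaks at repeated copies described below. Without the peaks at mitochondrial copies, 13 genes had a peak at an end. For the remaining 6 of the 15 genes the strand was not at hand. Of those, TRIB1 encodes a pseudokinase that guides protein degradation and had 2 peaks inside its 8.05 kb, of folds 5.54 and 7.42, the second 395 bp from an end. MYMK, which encodes a muscle cell fusion protein, had a fold of 8.77 at 2.65 kb outside the gene, and MUC5AC, a secreted mucin gene, a fold of 6.18. Another 2 are neighbouring LOC genes at the start of chromosome 16 that share a peak of fold 2.89.

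Gene bodies held 70 peaks, 40.5% (33.1 to 48.2), farther than 3 kb from any protein-coding gene end, and these parts of the genes cover 37.2% of the bases between the outermost genes or peaks of the chromosomes. A summit inside was found for 70 genes, or 0.349% of protein-coding genes. Most of these 70 genes were long, with a median of 182 kb against 24.1 kb over all protein-coding genes, and 64.3% of them exceeded 100 kb. Genes over that length hold 66.4% of all protein-coding gene bases. Over genes of every type, 147 of 59675, or 0.246%, had a summit inside or within 3 kb of an end. The strongest body peak was in SLC6A11, a GABA transporter gene, with a fold of 13.8 and a −log10 q of 22.5 at chr3:10873442-10873933, where LNCaP PRMT5 also had a peak (fold 9.84). It was followed by SELP, the P-selectin gene (10.5), COL22A1, a collagen gene (9.54), CARS2 (9.45), L3MBTL4, which encodes a protein of the malignant brain tumour repeat family (9.28), and KIF26B, an atypical kinesin gene (9.02). Of the 6 genes with body peaks among the 15 highest, COL22A1 alone had no peak in another list.

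Several families had more than 1 gene with a peak, and these were singled out after their values were seen. PTPRN2, PTPRD and PTPRF, 3 of 20 receptor-type tyrosine phosphatase genes, had peaks. PTPRN2 had 3 summits over its 1049 kb, with folds of 6.47 to 7.62, and PTPRD and PTPRF had 1 each, with folds of 6.22 and 6.14. Of 27 slit, semaphorin and netrin genes, whose products guide axons and migrating cells, NTN1 (8.00), SEMA5A (6.41) and SLIT3 (6.08) had a peak. Of 44 collagen genes, COL22A1, COL23A1 (5.76) and COL5A1 (4.31) did. Of 18 mucin genes, MUC5AC and MUC4 (3.18) did. Of 347 solute carrier genes, SLC6A11 and SLC10A7 (6.06) did, which is 0.576% and near the share of all genes. Among 39 kinesin and 23 cadherin genes, also counted, 1 each had a peak (KIF26B and CDH4). Beside these shares stands the 0.389% of all protein-coding genes with a summit inside or within 3 kb of an end, and many genes of these families are long. Other bodies with a peak, picked out of the 70 after their values were seen, included KCNIP4, a potassium channel regulator gene of 1220 kb with 2 summits (5.70 and 7.23), the lysine methyltransferase gene SMYD3 (7.24), JARID2, a cofactor of Polycomb repressive complex 2 (6.52), the receptor gene EGFR (4.52) and the stress kinase gene HIPK2 (5.17).

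Between genes lay 87 peaks, 50.3% (42.6 to 58.0), against 56.4% of the bases. Of these, 15 were in a long noncoding RNA gene, 6 in a pseudogene and 68 in no annotated gene of any type. Over the whole list, 76 of 173 peaks, 43.9% (36.4 to 51.7), lay in no gene of any type. Genes of any type cover 54.4% of the bases. The median distance of the 87 peaks from a protein-coding gene was 85.4 kb, and 41 of the 87 were over 100 kb away. Among the 15 highest peaks, 6 lay between genes. One was the TLE3 peak 4.19 kb upstream (fold 10.8). The others stood 46.9 kb from ELFN1 on chromosome 7 (11.0), 394 kb from GRIK2 on chromosome 6 (10.8), 12.6 kb from B4GALNT4 (9.28), 321 kb from EDEM1 (9.06) and 3.397 kb from ZNF182 (9.02). A pair of neighbouring peaks, 9.69 and 10.1 kb from IRF1, an interferon regulatory factor gene, had folds of 6.59 and 6.47 and no overlap with another list. A pair on chromosome 18 whose nearest protein-coding gene was SALL3, with folds of 6.91 and 6.98, also overlapped no other list. Pairs between genes that did overlap LNCaP PRMT5 lay on chromosome 18 near LOC124905450 (folds of 1.32 and 1.44) and on chromosome 8 far from TSNARE1, the nearest gene (3.61 and 4.84).

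The intervals of the shares at gene ends, inside genes and between genes each included the share of bases there, which was 6.43% at gene ends, whereas the interval near chromosome ends lay above it. In the LNCaP PRMT5 list, which shares the control, 34.1% (31.1 to 37.1) of peaks were at gene ends, 28.8% (26.0 to 31.7) inside genes and 37.1% (34.1 to 40.3) between them. In the PC3 METTL3 list those shares were 5.86% (5.34 to 6.42), 39.9% (38.7 to 41.0) and 54.3% (53.1 to 55.4). Within 1 Mb of chromosome ends, which make up 1.56% of the bases, lay 29 LNCaP METTL3 peaks, 16.8% (11.5 to 23.2), on 15 chromosomes. For LNCaP PRMT5 the share was 16.4% (14.2 to 18.9), for PC3 PRMT5 12.5% (10.9 to 14.1) and for PC3 METTL3 1.64% (1.36 to 1.95). Of the 29 LNCaP METTL3 peaks near chromosome ends, 17 overlapped a LNCaP PRMT5 peak, called against the same control, and 13 had a fold under 4. A cluster of 4 at mitochondrial gene copies on chromosome 1 is among the 29. Peaks of the list with a neighbour within 50 kb numbered 27, in 9 clusters, which is 15.6% (10.5 to 21.9) against 34.6% (31.6 to 37.7) of the longer LNCaP PRMT5 list. Intervals of different lists are set side by side as a description, and with 1 library each no difference was tested.

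**Figure D2:**
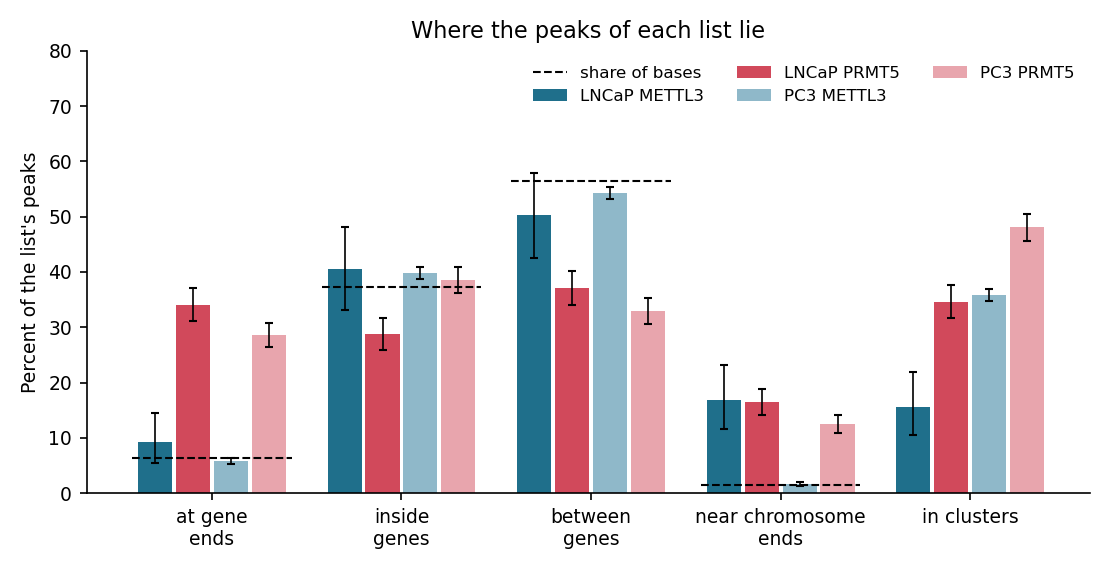
Percent of the peaks of each list (vertical axis) at gene ends, inside genes, between genes, within 1 Mb of chromosome ends and with a neighbour within 50 kb, with exact 95% binomial intervals as error bars. Dashed lines give the share of bases in the same place where it is defined. The LNCaP METTL3 share near chromosome ends, 16.8%, stands above the 1.56% of bases there.

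By chromosome, the list was uneven, with no peak on chromosome 19. That chromosome holds 1451 protein-coding genes, 7.24% of all, and 1.90% of the span. No METTL3 peak of LNCaP lay on it, and 0 of 173 allows a share of up to 1.73% by the approximation of 3 counts of the total. The exact 95% interval is wider, reaching 2.11%, and includes the 1.90% of the span. So no lack of peaks for the length of the chromosome is read from the 0. The LNCaP PRMT5 list had 79 peaks there, 8.06% (6.43 to 9.95), the PC3 PRMT5 list 194, 11.7%, and the PC3 METTL3 list 111, 1.49%. Chromosome X held 2 METTL3 peaks, 1.28 per 100 Mb. Chromosomes 18 and 7 were densest, with 11.2 and 10.0 peaks per 100 Mb. These rest on 9 and 16 peaks, 5.20% (2.41 to 9.65) and 9.25% (5.38 to 14.6) of the list. The 9 of chromosome 18 include the neighbouring pairs near SALL3 and LOC124905450, and the 16 of chromosome 7 a pair in PTPRN2. On chromosome 15, 7 of the 9 peaks were those of TLE3. The number of copies of each chromosome in these cells was not measured here, and its part in these counts was not tested.

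**Figure D3:**
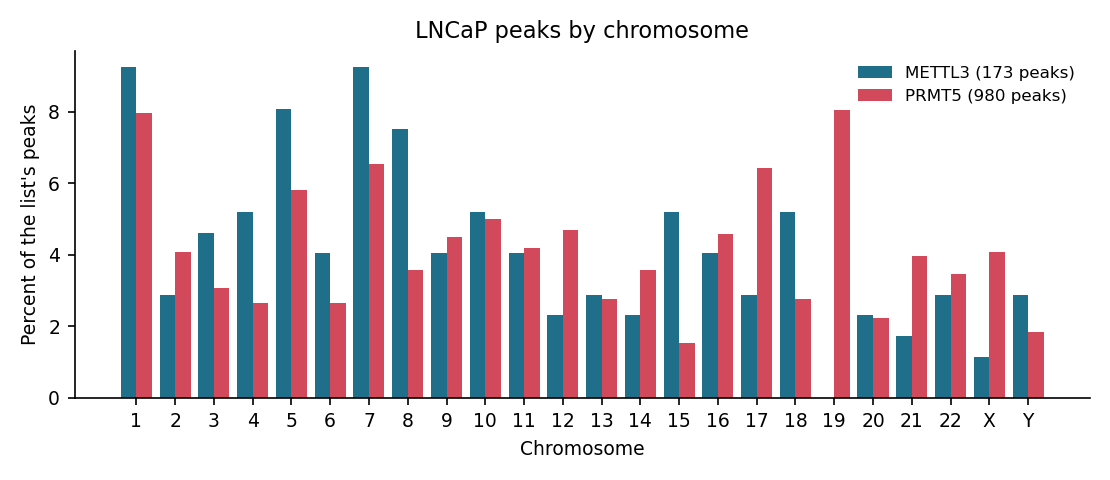
Percent of each LNCaP list (vertical axis) on each chromosome (horizontal axis), METTL3 in blue (173 peaks) and PRMT5 in red (980 peaks). The METTL3 bar is missing at chromosome 19, where the PRMT5 list has 79 peaks.

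The list held a set of peaks with a low fold and often a very small q. The fold of 4 that divides them was chosen after the values were seen. Below it were 36 peaks, with folds of 1.32 to just under 4 and a median −log10 q of 9.93, against 4.86 for the 137 others. The highest −log10 q of the list, 265, belonged to one of them, with a fold of 3.54, at chr17:22521241-22521574. It lies 692 bp from MTCYBP13, a nuclear pseudogene copy of the mitochondrial cytochrome b gene. In all, 8 peaks lay within 3 kb of a nuclear copy of a mitochondrial gene, and all 8 had a fold of 3.54 or less. These include 4 in a row on chromosome 1, between 629183 and 634111, at MTND1P23 (1.48), MTCO1P12 (3.08), MTCO2P12 (1.97) and MTATP6P1 (1.62), and single peaks at MTRNR2L8 (2.91), MTRNR2L2 (1.53) and MTND6P4 (3.46). Each of the 8 overlapped a LNCaP PRMT5 peak, 4 a PC3 PRMT5 peak and none a PC3 METTL3 peak. Nuclear copies resemble mitochondrial DNA, and whether reads were exchanged between them was not tested.

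A further 7 peaks lay within 3 kb of DUX4 or a DUX4-like copy, the repeated homeobox gene of the D4Z4 arrays, on chromosomes 3, 4, 22 and Y. Their folds ran from 1.55 to 4.11 and their −log10 q from 4.68 to 29.1, and all 7 overlapped a LNCaP PRMT5 peak. Chromosome Y gave 4 of them within 24.8 kb. Of the 36 peaks of low fold, 22 lay at a mitochondrial copy, a DUX4 copy or a chromosome end, against 17 of the 137 others. Whether reads were exchanged between copies was not tested.

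**Figure D4:**
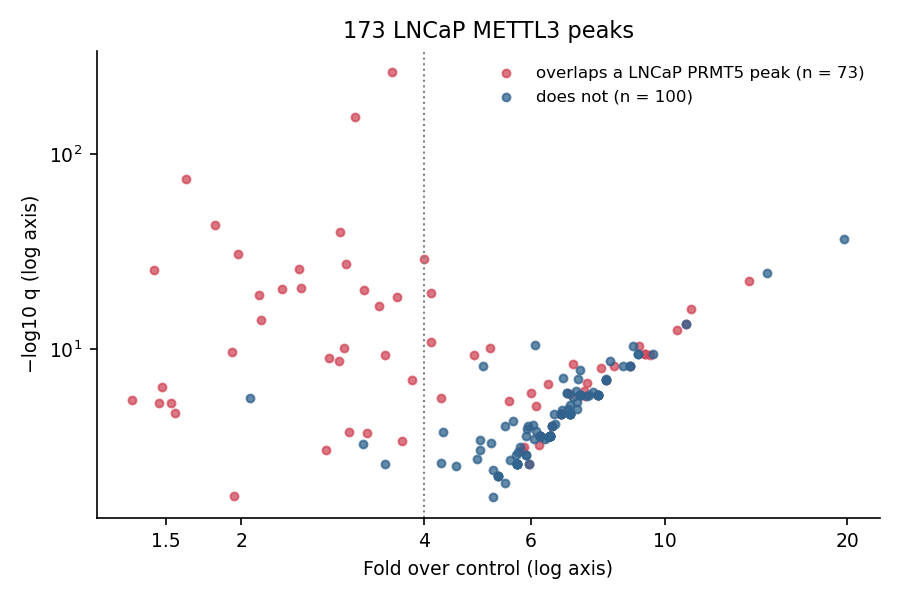
Fold over the control (horizontal log axis) against −log10 q (vertical log axis) for the 173 LNCaP METTL3 peaks, red where the peak overlaps a LNCaP PRMT5 peak (73) and blue where it does not (100). The dotted line is a fold of 4. To its left lie 36 peaks, 33 of them red, and the highest point to its right is the TLE3 peak of fold 19.8.

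Overlap with LNCaP PRMT5 was more frequent among the peaks of low fold. Of the 36 peaks with a fold under 4, 33 overlapped a LNCaP PRMT5 peak, 91.7% (77.5 to 98.2). Of the 137 others 40 did, 29.2% (21.7 to 37.6). Only 2 of the 36 were in no other list. Overlap with PC3 METTL3 was 16.7% (6.37 to 32.8) under a fold of 4 and 4.88%, 6.94% and 12.5% in the ranges of 4 to 6, 6 to 8 and 8 or more. With PC3 PRMT5 the share was 41.7% (25.5 to 59.2) under a fold of 4, and in the other ranges 9 of 41, 5 of 72 and 7 of 24 peaks overlapped. Among the 24 peaks with a fold of 8 or more, 11 overlapped LNCaP PRMT5, 7 PC3 PRMT5 and 3 PC3 METTL3, and 11 were in no other list. Over the whole list 73 peaks overlapped LNCaP PRMT5, which is 42.2% of this list and 7.45% of that one, and both were called against 1 control library. The 16 that overlapped PC3 METTL3 were 9.25% of this list and 0.215% of that one. The 36 that overlapped PC3 PRMT5 were 20.8% of this list, and 2.23% of the PC3 PRMT5 peaks lay under them.

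**Figure D5:**
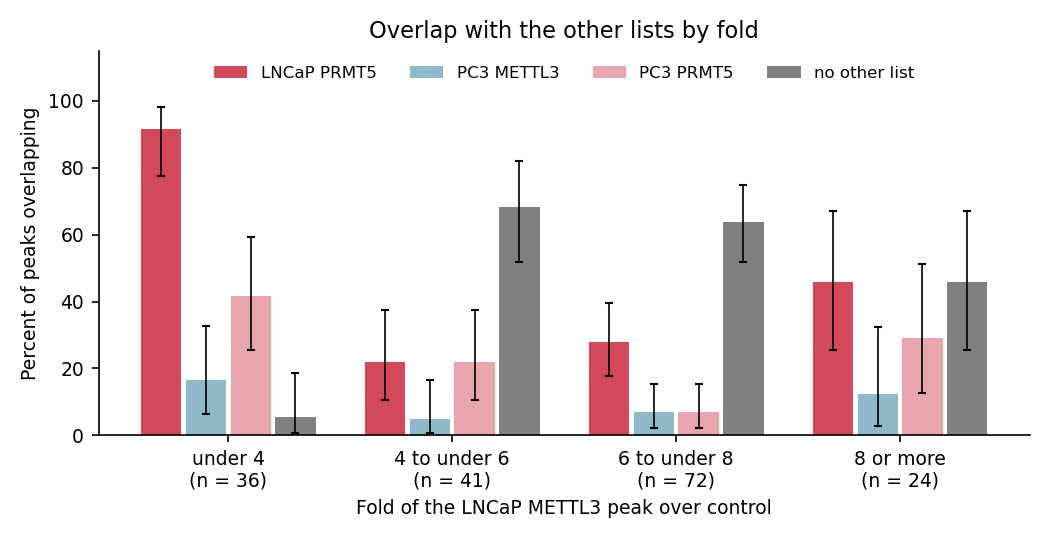
Percent of LNCaP METTL3 peaks that overlap each other list, or none (vertical axis), in 4 ranges of their own fold (horizontal axis, 36, 41, 72 and 24 peaks), with exact 95% binomial intervals. In the lowest range 91.7% overlap a LNCaP PRMT5 peak and 5.56% are in no other list.

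A peak in all 4 lists was seen for 9 LNCaP METTL3 regions, 5.20% of the list, and 7 of the 9 were between genes. The region of SELP (METTL3 fold 10.5) was inside the gene, and that of SERINC2 (2.97) was at a gene end, 2.69 kb from the far end. The others had B4GALNT4 (12.6 kb away, METTL3 fold 9.28), B4GALT5 (15.4 kb, 4.11), SPDYE17 (24.9 kb, 3.82), SOX8 (38.5 kb, 2.78), DLL1 (136 kb, 2.51), EDEM1 (321 kb, 9.06) and TSNARE1 (340 kb, 4.84) as nearest protein-coding gene. For the shared regions, the folds of both lists are given side by side, each relative to its own control, and those named have the largest values of the smaller fold. With PC3 PRMT5 they included KIF26B (9.02 in LNCaP METTL3 and 10.0), a region 342 kb from CDH11 (8.00 and 11.5) and PPP6R2 (6.47 and 8.38). With PC3 METTL3 they included SLC10A7 (6.06 and 8.26), SELP (10.5 and 5.10), EDEM1 (9.06 and 4.58) and PRKAG2 (7.24 and 4.35). At the other end, 87 peaks, 50.3%, were in no other list. Their median fold was 6.52 and their median width 225 bp, and 10 of them lay at gene ends, 36 inside genes and 41 between. After the TLE3 peaks, those of highest fold were in COL22A1 (9.54), 3.397 kb from ZNF182, a zinc finger gene on X (9.02), 53.1 kb from the cochaperone gene DNAJB6 (8.77) and at MYMK (8.77).

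The gene lists of the m6A pathway held no METTL3 peak, and few other lists held any. None of 10 m6A writers and adaptors, 12 erasers and readers, 13 arginine methyltransferase and methylosome genes, 17 prostate cancer suppressors and drivers, 13 Wnt and TCF partners of TLE, 20 splicing regulators, 20 ribosomal protein genes and 11 abundant long noncoding RNA genes had a METTL3 summit inside or within 3 kb of an end. The genes METTL3, METTL14 and WTAP were 7507, 27571 and 1397 kb from the nearest peak, PRMT5 was 6089 kb away, and KLK3 is on chromosome 19. Of all 14 lists, 5 had 1 or 2 members with a peak. These were TLE3 and TLE4 among 18 corepressor genes, L3MBTL4 and ZMYND11 among 21 chromatin regulators, and PTPRD among 18 long cytoskeletal and neuronal genes. The others were SELP among 11 immune and endothelial genes, and GRHL2, an epithelial transcription factor gene with a fold of 4.27, among 15 luminal prostate genes. With 0.389% of protein-coding genes called, lists of 10 to 21 genes are short, and an empty one is not read as a result. A peak list gives no expression, so the luminal markers could not check the identity of the cells: KLK3, KLK2, TMPRSS2, FOLH1, STEAP2 and HOXB13 had no peak.

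The values of the list are coarse. The smallest width, 209 bp, was that of 47 peaks, 27.2%, and 65 of the 173 peaks shared their fold and q exactly with another peak. The commonest pair, a fold of 6.47 with a −log10 q of 3.58, occurred 7 times. Small differences in fold among mid-range peaks are therefore not read as an order. The weakest peak kept by the authors had a −log10 q of 1.75.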

How the data were processed

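The authors deposited 1 narrowPeak list per antibody and line. The submitters' processing notes name MACS2 2.1.0, Bowtie 1.1.1, Trimmomatic 0.33, bcl2fastq 2.17, ChIPseeker and build hg38. Their settings, duplicate handling and depth were not given in the sources used here. The deposited score is 10 times the −log10 q, rounded down. The deposited fold (summit signal as a ratio to the caller's expected level), −log10 p-value and −log10 q-value are the authors' caller's own and rank peaks only within a list. Folds of other lists are printed beside them as values.

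Contigs and the mitochondrial genome were left out. Genes came from RefSeq (GRCh38.p14, 20033 protein-coding of 59675), and starts and strand from its promoter windows, present for 79.1% of protein-coding genes, or 82.0% off chromosome 8, which has none. Peaks were placed by summit, within 3 kb of an end before inside before between. Overlaps needed 1 bp. Chromosome limits are the outermost genes or peaks. Python 3.11.15, pandas 2.3.3 and scipy 1.17.1 were used, and the annotation was tested on simulated data. Members, gene lists and rules were chosen with earlier results of these data known. The text names the 15 highest peaks, genes with a peak at an end, clusters, shared regions and list members. One gene with a peak at an end and one gene list are not reported here. With 1 library per side no test was run. Alternatives were stricter q or fold, merged loci, other windows and overlaps.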

Additional observations from a re-analysis of the deposited data

Results flagged for a closer look

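A signal outside the regions described came from 26 entries of the LNCaP METTL3 list on the mitochondrial genome and unplaced contigs, which the authors' caller placed above the control. Their median fold was 2.21, from 1.24 to 11.4, and 3 of them, with folds of 1.24 to 1.71, lay on the mitochondrial genome.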

How the results depend on the processing

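No paired analysis was possible because each group had 1 library. Of 87 alternative values of 13 results, 70 stayed within the 95% interval or 1.5 times the count. With a fold of at least 5, the genes with a peak at an end fell to 8, the median fold became 6.73, and the overlap with LNCaP PRMT5 became 28.3% and with PC3 PRMT5 13.4%. With partner peaks of fold 5 or more, the overlap with LNCaP PRMT5 was 31.8%, that with PC3 PRMT5 7.51% and that with PC3 METTL3 1.73%. With 50% of both peaks shared, the overlap with LNCaP PRMT5 was 31.2%. A window of 1 kb gave 5 genes and 3.47% of peaks at gene ends. One of 10 kb gave 51 genes, 28.3% at gene ends, 28.9% inside genes and 14.4% near starts. With genes of all types, 27.7% of peaks were at gene ends and 30.1% between genes. Chromosome ends of 5 Mb held 35.3%. Leaving out the peaks at mitochondrial copies was an alternative chosen after seeing the data. Depth is unknown and limits every absence of a peak.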
